A study of Danio rerio with 16 samples.

Results

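The proteasome subunit genes of the zebrafish (Danio rerio) were followed in RNA from whole embryos. They were taken as the Ensembl genes whose symbol starts with psma, psmb, psmc, psmd, psme or psmg and a digit, in either case of letters, which gave 58 of the 32520 genes in the count table. Of these, 56 encode subunits, activators or assembly chaperones. The other 2, PSMC3IP and PSME3IP1, meet the rule by name only: they are named for binding a proteasome protein and are not subunits. The symbols are printed as the name table gives them, human-style capitals included. A total of 50 genes had a symbol of their own, and 8 shared the symbols PSMA6, PSMD11, PSMD2 and PSME4, so these are given with their Ensembl identifier.

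All embryos were labelled wild type and received a locked nucleic acid (LNA), a modified antisense oligonucleotide, by injection at 0 hpf (hours after fertilization). Controls were given Scrambled LNA and knockdown embryos Bik-1 LNA, which is directed against the endogenous retrovirus BHIKHARI. Each treatment was sampled at 8, 11, 14 and 18 hpf with 2 replicates, which makes 8 groups and 16 polyadenylated RNA libraries. The labels do not say whether replicates came from separate clutches or injections, so the p-values rest on a spread between samples that may be technical alone. In whole embryos, fewer cells of a type and less RNA per cell cannot be told apart.

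The proteasome is the protease that degrades proteins tagged with ubiquitin. Its barrel-shaped core has outer rings of alpha subunits (PSMA) and inner rings of beta subunits (PSMB), of which PSMB5, PSMB6 and PSMB7 carry the proteolytic sites. A regulatory particle caps the core: its base holds the PSMC ATPases, which unfold substrates, and ubiquitin receptors, and its lid holds the enzyme that removes ubiquitin. PSME proteins are alternative caps, and PSMG proteins with PSMD5, PSMD9 and PSMD10 are assembly chaperones. In mammals, interferon induces PSMB8, PSMB9, PSMB10, PSME1 and PSME2, and the induced beta subunits replace the constitutive catalytic ones in newly made particles.

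A library held 4399855 to 7694887 counts. Repeat families took a share of 5.57% to 12.42%, the highest in control 8 hpf replicate 1 and 9.94% or less elsewhere. On the first principal component of all features tested (65.9% of the variance), the controls lay at -118 and -138 at the first time and at 120 and 122 at the last. The mean of the knockdown libraries was nearer the early end than the control mean at all 4 times. The targeted repeat BHIKHARI_LTR was lower after the knockdown at each time, with log2 fold changes of -1.98, -1.80, -2.03 and -1.52 at 8, 11, 14 and 18 hpf and a highest adjusted p of 0.000201 by edgeR. Of 27 markers listed for embryonic tissues, 26 matched a gene, and 20 of these had counts in all 16 libraries.

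Most of the genes were expressed throughout. A total of 48 of the 58 passed the filter on low counts and were tested, and 10 did not. Levels are given as counts-per-million values (CPM), scaled between libraries, and replicate 1 precedes replicate 2 wherever a pair of values is printed. A gene was called when its adjusted p was under 0.05 by edgeR's quasi-likelihood test, with Benjamini-Hochberg adjustment over all 17756 genes and repeat families tested. Levels of different genes are not ranked against each other, since no transcript lengths were used.

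Summed over the 58 genes, the level at 8, 11, 14 and 18 hpf in turn was 4186 and 4166, 4491 and 4775, 4543 and 4917, and 4762 and 4384 CPM in control embryos. In knockdown embryos it was 4243 and 4272, 4674 and 4846, 4656 and 5198, and 4565 and 4979 CPM. All 4 libraries of 8 hpf lay below the 12 later ones, and the treatments overlapped at 11, 14 and 18 hpf but not at 8 hpf, where the knockdown was higher.

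**Figure D1:**
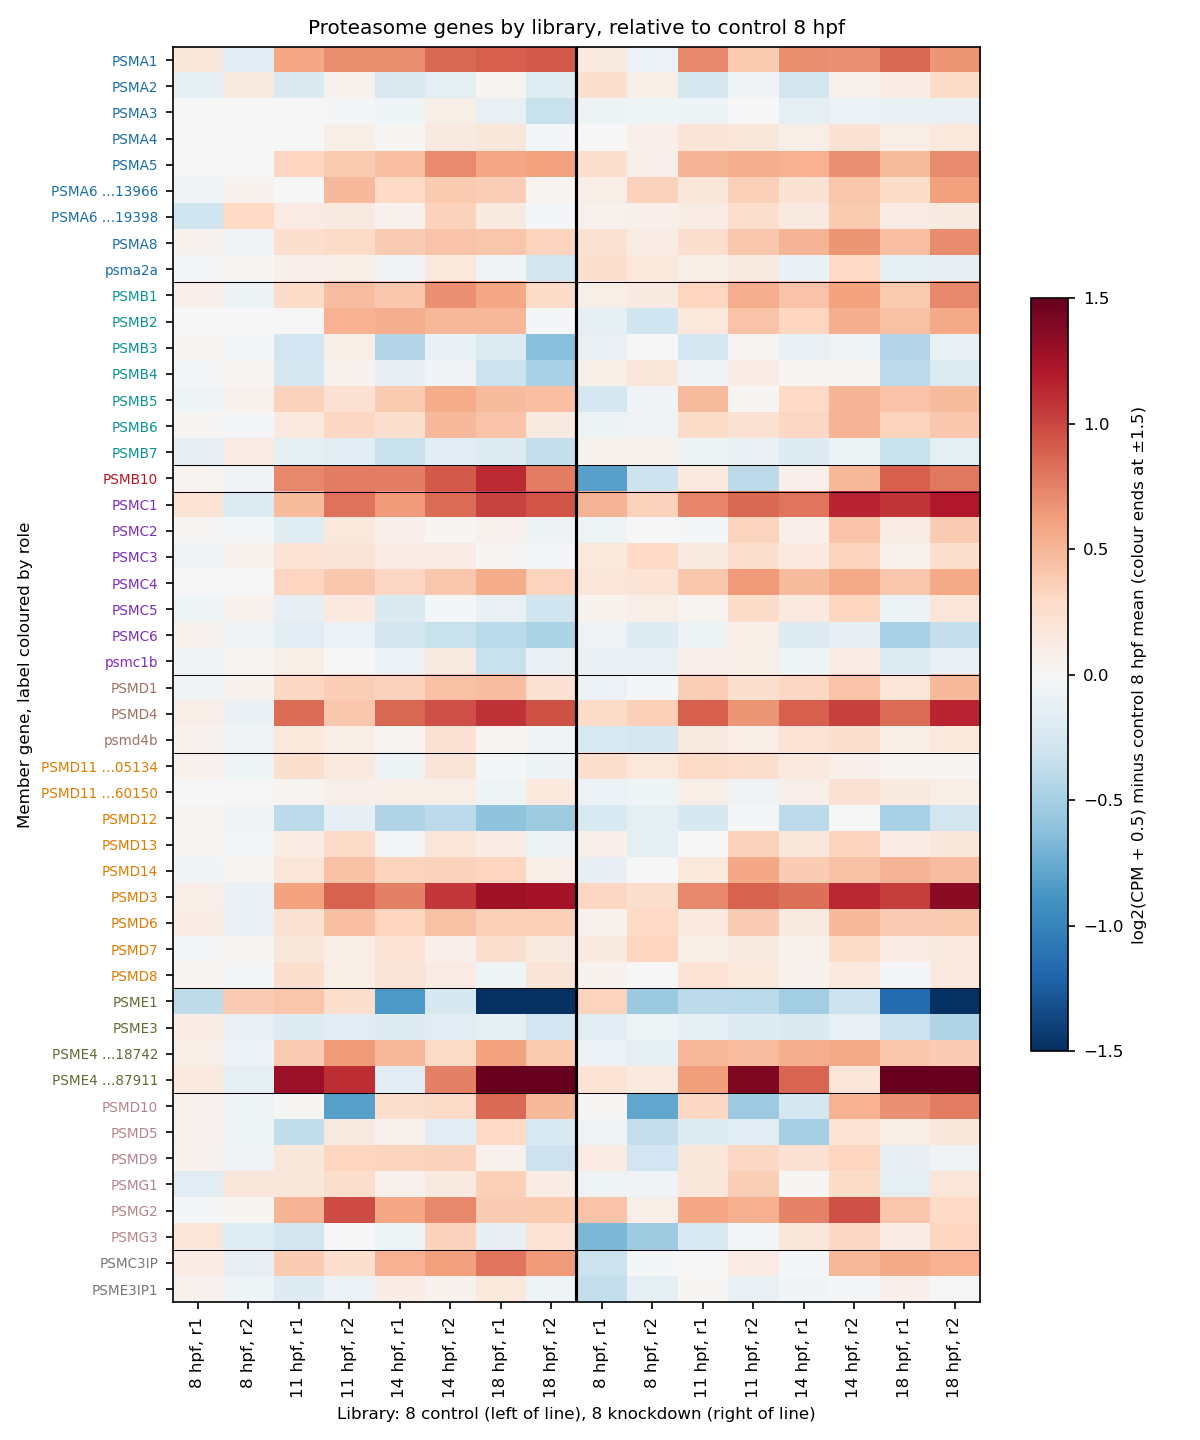
Level of each tested gene in each of the 16 libraries, as log2(CPM + 0.5) minus the mean of the control libraries at 8 hpf; rows are the 48 tested genes with labels coloured by role, columns are libraries (r1 and r2, the replicates), and colour ends at 1.5 in either direction. Most rows stay pale, while PSMA1, PSMC1, PSMD3, PSMD4 and PSMB10 turn red after 8 hpf in controls and PSME1 turns blue at 18 hpf; identifiers of genes that share a symbol are shortened to their last 5 digits.

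The first comparison was how the genes changed with developmental time in control embryos. Between 8 and 18 hpf, 14 of 48 rose and 5 fell, that is 29.2% and 10.4%, while over all features 33.7% were called higher and 26.4% lower. One of the 14, PSME4 ENSDARG00000087911, passed the filter on low counts through its 18 hpf libraries alone, so its test is partly fixed by that filter and is not read, which leaves 13. The largest rises with ample counts were in PSMD3, a lid subunit, PSMD4, a ubiquitin receptor of the base, PSMC1, an ATPase, PSMB10, an inducible beta subunit, and PSMA1 of the alpha ring, from 1.87-fold for PSMA1 to 2.40-fold for PSMD3. The falls were in PSME1, PSMD12, PSMC6, PSMB4 and PSMB7. Of these, PSME1 passed the filter through its groups of 8, 11 and 14 hpf and not of 18 hpf, so its test is not read either. That leaves PSMD12, PSMC6, PSMB4 and PSMB7 as the falls that are read. The median log2 fold change of the 48 genes was 0.08 with an interquartile range of -0.09 to 0.44, against a median of 0.10 and a range of -0.77 to 1.40 over all features. For 36 of the 48 the log2 fold change lay within 0.5 of 0. Of the 19 genes called, 10 were called in each of the 16 fits that left out a library, and 9 lost the call in at least 1: PSMA8, PSMB1, PSMB4, PSMB5, PSMB7, PSMC4, PSMD1, PSME4 ENSDARG00000018742 and PSMC3IP. The 10 include PSME1 and PSME4 ENSDARG00000087911, whose tests are not read.

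**Figure D2:**
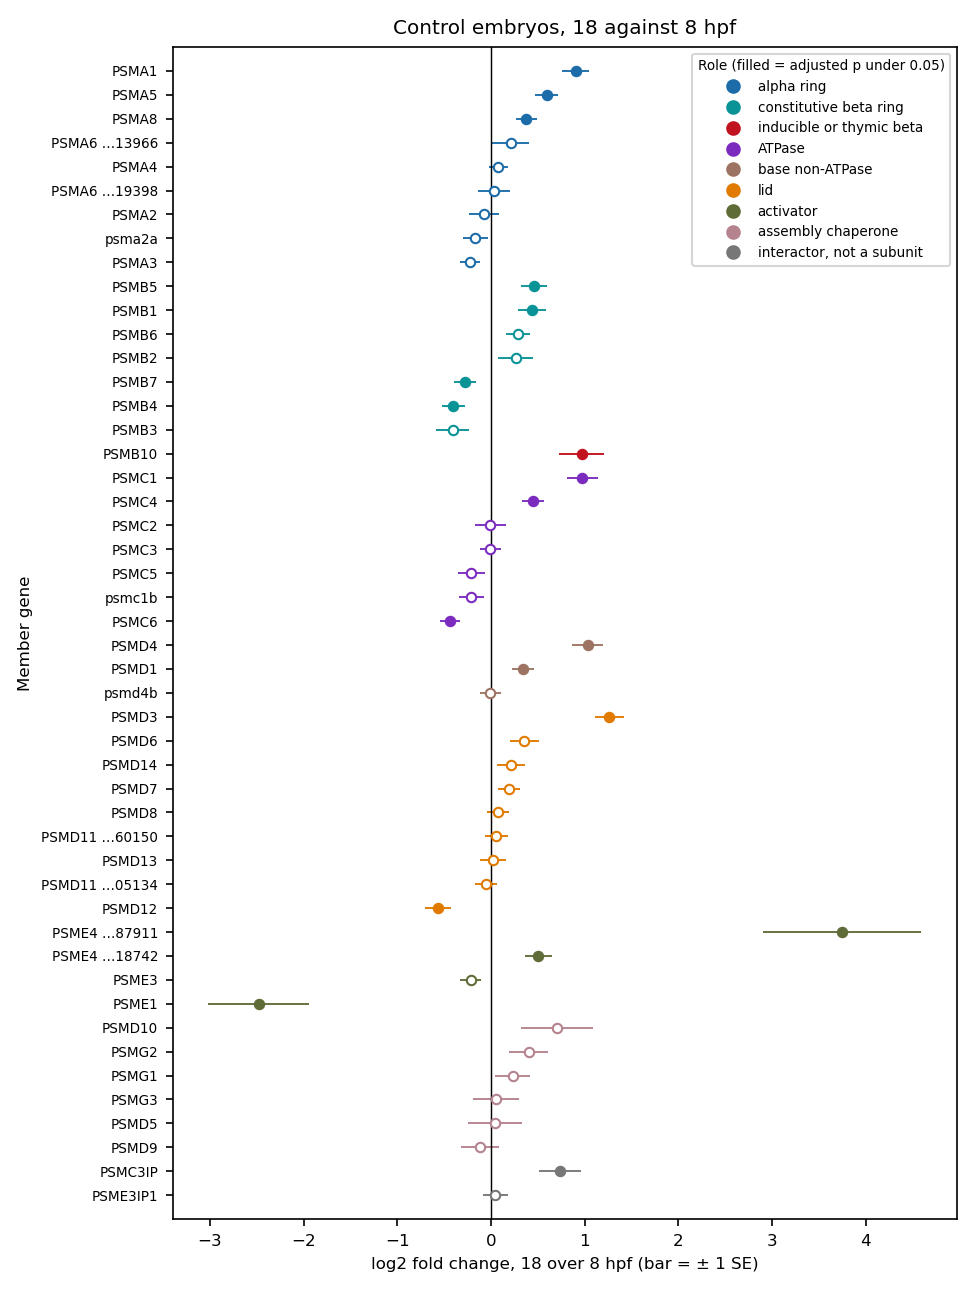
Log2 fold change of each of the 48 tested genes in control embryos, 18 hpf over 8 hpf (2 libraries per time); points are the fitted values, bars are ± 1 SE, colours mark roles and filled points have an adjusted p under 0.05. Of the 48 genes 14 lie to the right of 0 with filled points, from PSMD1 at 0.34 to PSME4 ENSDARG00000087911, kept by the filter through its 18 hpf libraries, at 3.74, and 5 lie to the left. Among the 5, PSME1 was kept by the filter through its 8, 11 and 14 hpf groups.

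In the lid, PSMD3 stood in the controls of 8, 11, 14 and 18 hpf at 60.6 and 52.5, 86.0 and 104, 95.3 and 118, and 137 and 135 CPM. The 8 hpf and 18 hpf libraries did not overlap, and the knockdown libraries moved from 70.3 and 67.7 to 116 and 145 CPM. The control rise was 2.40-fold (log2 1.26, SE 0.16, edgeR adjusted p = 4.1e-06). PSMD12, another structural subunit of the lid, went the other way, from 125 and 117 CPM to 79.8 and 83.7 CPM between these times (log2 -0.57, SE 0.14, edgeR adjusted p = 0.0027). The other 7 lid genes tested (both PSMD11 genes, PSMD6, PSMD7, PSMD8, PSMD13 and PSMD14, the enzyme that removes ubiquitin) were not called, with log2 fold changes from -0.05 to 0.36.

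In the base, the ATPase PSMC1 was at 57.8 and 43.5 CPM in controls at 8 hpf and at 102 and 96.9 at 18 hpf (log2 0.97, SE 0.17, edgeR adjusted p = 0.000103). PSMC4 also rose (log2 0.45) and PSMC6 fell, from 190 and 177 CPM to 139 and 132 (log2 -0.44, SE 0.11, edgeR adjusted p = 0.0024). The remaining ATPases, psmc1b, PSMC2, PSMC3 and PSMC5, were not called, with values from -0.21 to -0.01. Among subunits of the base that are not ATPases, PSMD4 went from 34.4 and 29.9 CPM to 68.8 and 62.8 (log2 1.03, SE 0.17, edgeR adjusted p = 7.3e-05) and PSMD1, a large scaffold subunit, rose by a log2 value of 0.34. The paralog psmd4b had a log2 fold change of -0.01 and was not called.

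In the alpha ring, PSMA1 went from 86.8 and 68.5 CPM in controls at 8 hpf to 144 and 146 at 18 hpf (log2 0.90, SE 0.15, edgeR adjusted p = 6.1e-05). PSMA5 (0.59) and PSMA8 (0.38) also rose, and none of the 9 alpha genes tested fell. RefSeq lists psma7 as an older name of zebrafish psma8. The other 6 alpha genes, PSMA2, psma2a, PSMA3, PSMA4 and both PSMA6 genes, were not called and lay between -0.22 and 0.21.

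The constitutive beta ring moved in both directions. PSMB5, a catalytic subunit, went from 180 and 196 CPM in controls at 8 hpf to 261 and 256 at 18 hpf (log2 0.46, SE 0.14, edgeR adjusted p = 0.0090), and PSMB1 rose by 0.44. The PSMB5 call was lost without control 8 hpf replicate 1 (edgeR adjusted p = 0.081). PSMB4, a structural subunit, went from 183 and 191 CPM to 150 and 134 (log2 -0.40, SE 0.12, edgeR adjusted p = 0.0089), a call lost without control 18 hpf replicate 2 (edgeR adjusted p = 0.079). PSMB7, also catalytic, fell by 0.28 on the log2 scale, at an adjusted p of 0.047 by edgeR. That call was not made by DESeq2 (adjusted p = 0.128), with RLE scaling (edgeR adjusted p = 0.087) or without the filter on low counts (edgeR adjusted p = 0.118). The third catalytic subunit, PSMB6, had a log2 fold change of 0.29 and was not called, and neither were PSMB2 (0.26) and PSMB3 (-0.41).

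Among the activators, which open the core without the ATPase cap, PSME4 ENSDARG00000018742 rose, and the call of PSME1 as lower is not read. PSME1 was low throughout, with 4.09 and 7.31, 7.51 and 6.62, 2.79 and 4.56, and 0.660 and 1.26 CPM in the controls of 8, 11, 14 and 18 hpf. Its 8 and 18 hpf libraries did not overlap (log2 -2.48, SE 0.54, edgeR adjusted p = 0.00084). It had passed the filter through the groups of 8, 11 and 14 hpf and not of 18 hpf, so its test is partly fixed by that filter and is not read. That PSME4 gene went from 46.5 and 41.3 CPM to 67.1 and 57.7 CPM (log2 0.50, SE 0.14, edgeR adjusted p = 0.0063). PSME4 encodes a single-chain activator tied to acetylated histones in mammals. The other PSME4 gene, ENSDARG00000087911, held 3 counts in the controls of 8 hpf and 40 in those of 18 hpf, a count ratio per library total of 14.2 with an exact 95% interval of 4.52 to 71.7, for counting error only. These counts are a description. PSME3, the nuclear activator, was not called (-0.22).

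None of the 6 assembly chaperones tested was called between 8 and 18 hpf, and their log2 values ran from -0.12 for PSMD9 to 0.70 for PSMD10, whose SE was 0.38. PSMC3IP, which in mammals serves meiotic recombination, rose from 15.4 and 12.9 CPM to 25.1 and 22.3 (log2 0.74, SE 0.22, edgeR adjusted p = 0.0089). Leaving out replicate 2 of the 8 hpf controls or replicate 1 of the 18 hpf controls ended that call (edgeR adjusted p = 0.082 and 0.054). PSME3IP1 was not called (0.05).

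Between 8 and 11 hpf, 10 of 48 genes (20.8%) rose and 0 fell in controls, against 18.4% and 12% of all features. The lowest p was that of PSMD3 (log2 0.75, SE 0.16, edgeR adjusted p = 0.0019), and the others were PSMG2, which with PSMG1 starts alpha-ring assembly, PSMB10, PSMD4, PSMC1, PSMA1, PSME4 ENSDARG00000018742, PSMC4, PSMA5 and PSMD1, from 0.78 down to 0.34. Leaving PSME4 ENSDARG00000087911 aside, all 13 genes that rose by 18 hpf had their largest step between 8 and 11 hpf, and 9 were already called there. Both steps share the 8 hpf controls. Of the 5977 features that rose by 18 hpf, 65.9% had their largest step there and 49.0% were called there, so the early step is not particular to these genes. PSMG2 was called at 11 hpf and not at 18 hpf: its controls of 8, 11 and 18 hpf stood at 14.6 and 15.1, 21.4 and 29.8, and 19.6 and 19.7 CPM. The count of 10 rested on single libraries, since it was 5 or 1 when replicate 1 or 2 of the 8 hpf controls was left out, and 5 or 3 when replicate 1 or 2 of the 11 hpf controls was. Over all features the same 4 fits called 4470, 2760, 3181 and 4721, against 5392 with every library.

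Between 11 and 14 hpf, 0 of the 48 genes were called by edgeR (background 1.95% higher and 0.681% lower), 0 had an unadjusted p under 0.05, and DESeq2 also called 0. Between 14 and 18 hpf 1 gene rose and 1 fell, against 7.76% and 3.85% of all features. The higher one was PSME4 ENSDARG00000087911 and the lower one PSME1 (log2 -1.86, SE 0.55, edgeR adjusted p = 0.037). Neither test is read, since each gene passed the filter only through groups in which it was higher. The PSME1 call was also lost when any of the 4 control libraries of these times was omitted and by DESeq2 (adjusted p = 0.057).

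The same course was measured in knockdown embryos. Between 8 and 18 hpf 20 of 48 genes rose (41.7%) and 6 fell (12.5%), against 33% and 24.9% of all features. Of the genes called in controls, 14 of 14 that rose and 4 of 5 that fell were called in the same direction here, all but PSMD12. The risers of both courses include PSME4 ENSDARG00000087911, which passed the filter through its 18 hpf libraries in both treatments. Its test is not read here either, which leaves 13 of 13 risers shared. The shared falls include PSME1, which reached the filter's level at 8, 11 and 14 hpf alone and is likewise not read. Over all features 85.6% of those called higher in controls and 79.9% of those called lower were called the same way in the knockdown course. A further 6 rose by edgeR's test in the knockdown course alone, among them PSMD10 (log2 1.11, adjusted p = 0.022) and PSMG3 (log2 0.86, adjusted p = 0.0082), and psma2a and PSME3 fell. The psma2a and PSME3 calls were not made by DESeq2 (adjusted p = 0.085 for each) or with RLE scaling (edgeR adjusted p = 0.053 for each). Of the calls shared with controls, PSMC4 and PSMB7 were not called in the knockdown course by DESeq2 (adjusted p = 0.066 and 0.078). PSMC4 was also not called with upper-quartile scaling (edgeR adjusted p = 0.105), nor PSMB7 with RLE scaling (edgeR adjusted p = 0.052). The PSMD10 and PSMG3 calls were lost in some fits without 1 library, with PSMD10 at a log2 value of 0.73 without knockdown 8 hpf replicate 2. The difference between the 2 courses from 8 to 18 hpf was not tested by itself. A joint test of whether the knockdown effect differed among the 4 times called 0 of 48 genes and 0% of all features by edgeR. In it 0 of the 48 had an unadjusted p under 0.05, and DESeq2 called 0 of them. In all 26 genes were called, of which 10 in each of the 16 fits without a library, and the count was 16 or 15 when replicate 1 of the 8 hpf or replicate 2 of the 18 hpf knockdown libraries was omitted.

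For 6 pairs of paralogous members that were both tested, the balance within a library was expressed as the log2 ratio of their counts (pseudocount 0.5), which does not depend on scaling between libraries. This measure was chosen after the values had been seen. For 5 pairs the times were compared. The log2 ratio of PSMC1 to psmc1b had a mean of -0.25 ± 0.37 (SD, n = 4, both treatments) at 8 hpf and of 0.72 ± 0.13 at 18 hpf. All 4 late libraries lay above all 4 early ones (exact two-sided permutation test, p = 0.0286, the smallest possible with 4 against 4, and 0.071 adjusted over the 5 pairs tested). The test shuffled libraries freely over both treatments, whose ratios at 8 hpf did not overlap for this pair. PSMC1 and PSMD4 had also been called as rising in these data, so the exact p values of this paragraph are descriptions. For PSMD4 to psmd4b the means were -1.27 ± 0.33 and -0.60 ± 0.14, again without overlap and with the same exact p values. For that pair the difference was 1.04 in control libraries alone and 0.31 in knockdown libraries alone. The knockdown libraries of 8 hpf (-1.04 and -0.94) lay above the controls (-1.51 and -1.60). Those of 18 hpf (-0.80 and -0.56) lay below the controls (-0.50 and -0.53). The PSMC1 difference was 1.205 in control and 0.75 in knockdown libraries. The pairs of PSMA2 with psma2a, of PSMD11 and of PSMA6 differed between the times by 0.23, -0.23 and -0.16, with exact permutation p values of 0.0857, 0.0857 and 0.4 (0.107, 0.107 and 0.4 adjusted). In control and in knockdown libraries alone these differences were 0.10 and 0.36 for PSMA2, -0.10 and -0.36 for PSMD11 and -0.14 and -0.17 for PSMA6. The sixth pair, of PSME4, was given no test because of the filter and had means of 6.82 ± 0.37 and 4.29 ± 0.49, the first resting on counts near the pseudocount. Reads that match both paralogs could have been split between them, in a way the table does not show.

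**Figure D3:**
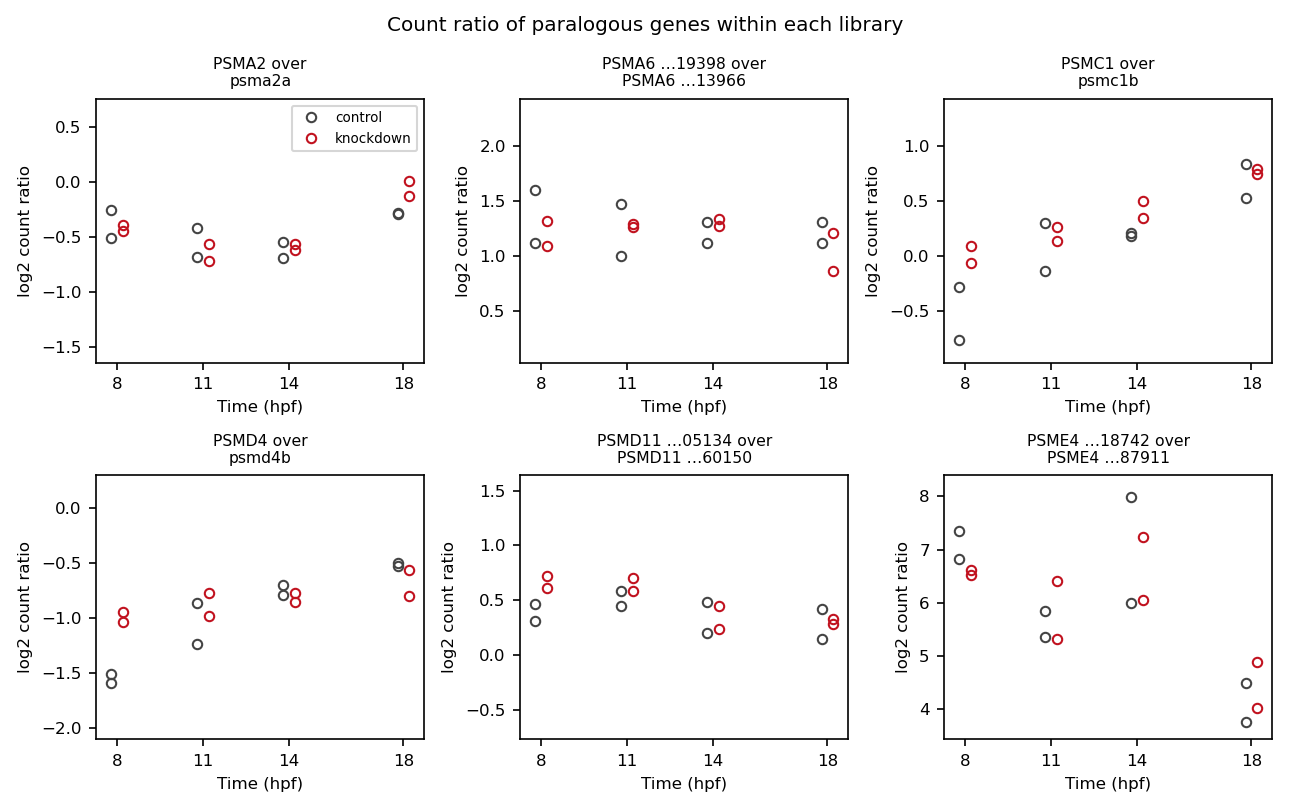
Log2 ratio of the counts of paralogous genes within each library, by time in hpf, for 6 pairs; each point is a library, grey for control and red for knockdown, and the vertical axes differ in position between panels. For PSMC1 over psmc1b all 4 libraries of 18 hpf (0.53 to 0.83) lie above all 4 of 8 hpf (-0.77 to 0.09).

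The second comparison was knockdown against control. At each single time 0 of the 48 genes were called by edgeR. Of all features, 0.0282% were called higher and 0.315% lower at 8 hpf, 0% higher and 0.00563% lower at 11 hpf as at 14 hpf, and 0.00563% in either direction at 18 hpf. An unadjusted p under 0.05 was reached by 4, 1, 2 and 0 of the 48 at 8, 11, 14 and 18 hpf, and DESeq2 called 0 at each time. Over all features such a p was reached by 1631, 823, 991 and 799 of 17756. A replicate block within each time, which no label backs, called PSMC1 at 8 hpf (log2 0.43, edgeR adjusted p = 0.031). It also called PSMB10 at 11 hpf (log2 -0.90, edgeR adjusted p = 0.025). Over all features that block called 622 at 8 hpf and 120 at 11 hpf, in place of 61 and 1. The median SE at 8 hpf was 0.14 for the 48 genes and 0.33 over all features. In simulated counts edgeR recovered 37.3% of features changed 2-fold at 8 hpf. That share is over features in general, whose SE was larger, and no recovery is given for the 48 genes.

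Averaged over the 4 times, 1 of 48 genes was called lower (2.08%) and 0 higher, against 1.3% and 0.332% of all features, so the share was near the background. The gene was PSMB10, ENSDARG00000043781, the inducible counterpart of PSMB7 in mammals. RefSeq lists psmb10 also among older names of psmb13a, a different member. At 8, 11, 14 and 18 hpf in turn, control libraries held 15.1 and 14.3, 24.5 and 25.4, 25.3 and 28.3, and 32.3 and 25.4 CPM of PSMB10. Knockdown libraries held 8.14 and 11.7, 16.2 and 11.0, 15.5 and 21.0, and 27.8 and 25.8 CPM. Both knockdown libraries lay below both controls at 8, 11 and 14 hpf, and the groups overlapped at 18 hpf.

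The averaged difference in PSMB10 was a log2 fold change of -0.52 (SE 0.12, edgeR adjusted p = 0.035), or 0.696 of the control level. At single times it was -0.56, -0.88, -0.55 and -0.10 at 8, 11, 14 and 18 hpf, none of them called, and the change of the effect with time was not called either (unadjusted p = 0.170 and adjusted p = 1 by edgeR). The call was lost in 12 of the 16 fits that left out 1 library, in which the 16 log2 values ran from -0.60 to -0.46 and the edgeR adjusted p reached 0.103; it held without knockdown 8 hpf replicate 2, knockdown 11 hpf replicate 1, knockdown 14 hpf replicate 2 or control 18 hpf replicate 2. DESeq2 with every library also called the averaged difference (log2 -0.53, adjusted p = 0.011). A replicate block within each time, which no label backs, called it too (log2 -0.53, edgeR adjusted p = 0.00071). With 11, 14 and 18 hpf only it was not called (log2 -0.51, edgeR adjusted p = 0.111). PSMB10 rose with time in the controls and the knockdown libraries lay nearer the early end of the first principal component on average, whose part in the result was not tested.

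**Figure D4:**
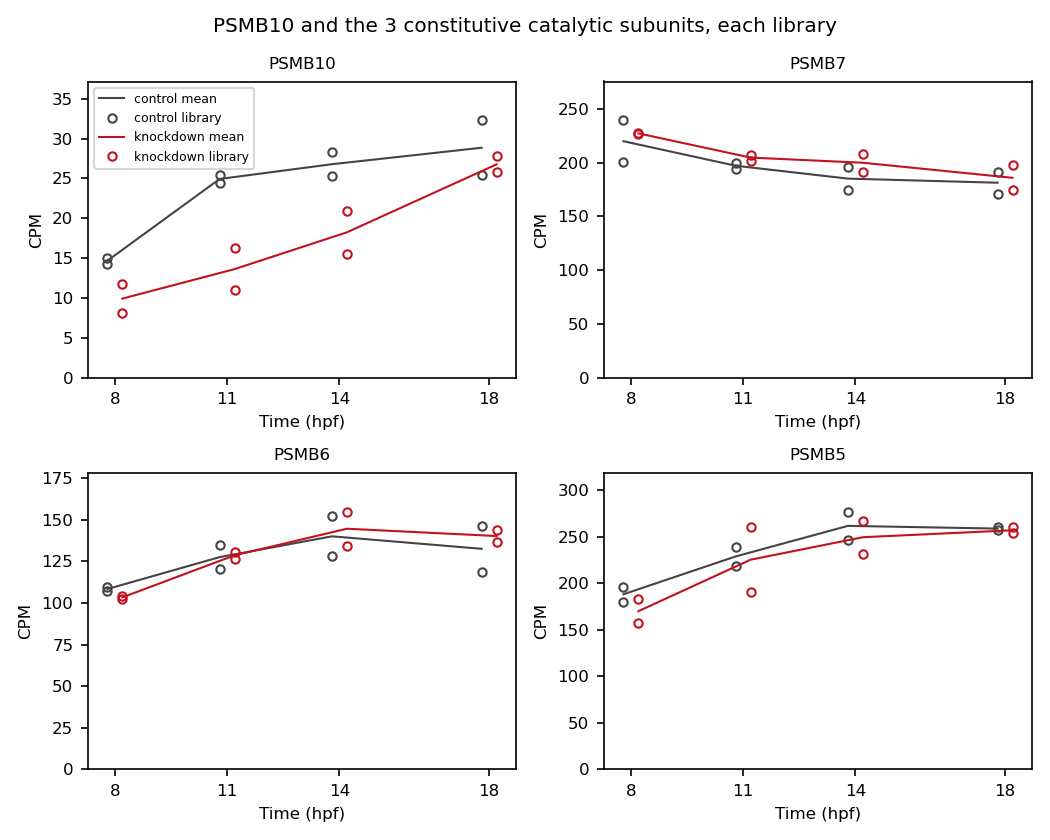
Level in CPM of PSMB10 and of the catalytic subunits PSMB7, PSMB6 and PSMB5 by time in hpf; open circles are libraries (2 per group), lines join group means, grey is control and red is knockdown. PSMB10 in the knockdown lies below the control at 8, 11 and 14 hpf and close to it at 18 hpf, while the averaged log2 differences of PSMB7, PSMB6 and PSMB5 were 0.06, 0.02 and -0.06.

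The constitutive catalytic subunits stayed close to their controls. PSMB7 was at 200 and 240 CPM in controls and 227 and 228 in the knockdown at 8 hpf, and at 200 and 194 against 208 and 202 at 11 hpf. Its averaged log2 difference was 0.06, that of PSMB6 0.02 and that of PSMB5 -0.06, and none of the 7 constitutive beta genes was called.

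Of the other genes, 47 of the 48 had an averaged log2 difference within 0.25 of 0. The median was 0.05 with an interquartile range of -0.02 to 0.09, against 0.01 and a range of -0.15 to 0.18 over all features. Above 0 lay 30 of the 48 genes and 9176 of the 17756 features. A total of 11 genes were above 0 at all 4 times and 4 were below 0 at all 4, namely PSMB10, PSMC3IP, PSMB5 and PSMD1, but apart from PSMB10 these directions carry no call. The share of all features with the same direction at all 4 times was not counted.

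The 7 ATPases all had an averaged log2 difference above 0, with a median of 0.14, and 4 of them (PSMC1, PSMC3, PSMC4 and PSMC5) had an unadjusted p under 0.05, but none was called. Over all features 2741 of 17756 had an unadjusted p under 0.05 and 9176 lay above 0. Of the 48 genes together 6 had such a p. Roles were not tested against each other, and the 7 ATPases were measured in the same 16 libraries, so they are not replicates. The lowest of the 7 ATPases was at 0.0007. In other roles 7 of 9 alpha, 7 of 9 lid, 5 of 7 constitutive beta and 1 of 6 chaperone genes lay above 0. So did 2 of 4 activators and 1 of 3 base subunits that are not ATPases. PSMB10 and the 2 genes that are not subunits lay below 0. PSMC5, in the same order of times, was at 98.7 and 107, 94.3 and 114, 88.8 and 101, and 94.98 and 83.7 CPM in controls. In the knockdown it was at 107 and 110, 106 and 125, 114 and 129, and 97.4 and 117 CPM. The groups overlapped at 8 and 11 hpf and not at 14 and 18 hpf, and the averaged log2 value was 0.21 (SE 0.07, edgeR adjusted p = 0.153). PSMC1 had an averaged value of 0.24 (SE 0.08, edgeR adjusted p = 0.154). A replicate block within each time, which no label backs, called PSMC1 and PSMC5 in the average (edgeR adjusted p = 0.0029 and 0.0064). Over all features that block called 2097 in place of 289. Summed over the 7 ATPases, controls stood at 715 and 708 CPM at 8 hpf and 728 and 763 at 14 hpf, below the knockdown libraries with 751 and 748 and with 789 and 897. At 11 hpf (742 and 807 against 785 and 891) and 18 hpf (746 and 701 against 740 and 840) the groups overlapped.

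**Figure D5:**
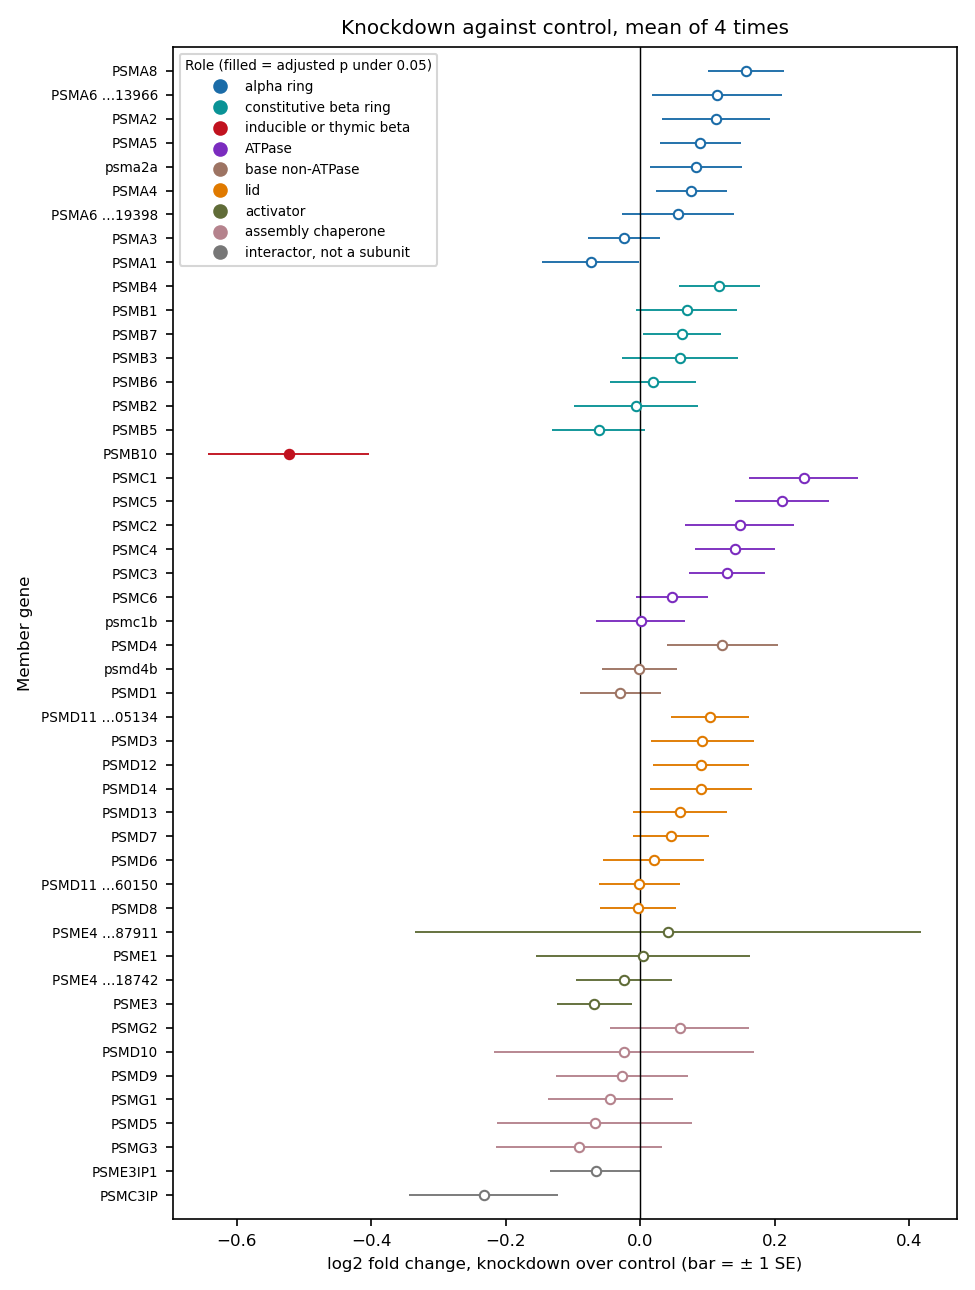
Log2 fold change of each of the 48 tested genes, knockdown over control, as the mean of the 4 times (8 libraries per treatment); points are the fitted values, bars are ± 1 SE, colours mark roles and the filled point has an adjusted p under 0.05. PSMB10 at -0.52 is the filled point, and the 7 ATPases lie from 0.00 to 0.24.

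At single times, the lowest p was reached by different genes, PSMB10 at 11 hpf among them. At 8 hpf it was PSMG3, a chaperone of alpha-ring assembly, with 16.05 and 12.4 CPM in controls and 8.68 and 9.58 in the knockdown (log2 -0.64, SE 0.25, edgeR adjusted p = 0.432), without overlap. At 14 hpf it was PSMC5 (log2 0.36, edgeR adjusted p = 0.850) and at 18 hpf PSMA8 (log2 0.21, edgeR adjusted p = 0.994), whose controls of 232 and 220 CPM lay below the knockdown libraries at 238 and 284.

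The 10 genes that failed the filter hold most of the inducible and thymic beta subunits. Of the 7 genes of that class only PSMB10 was tested. PSMB9 had 52 counts over the 16 libraries, 0 of them at 8 hpf in either treatment, 21 in controls and 31 in knockdown libraries, 15 of these in knockdown 14 hpf replicate 2 alone. PSMB8 had 8 counts, psmb13a 6, psmb11b 5, all in a single library, and PSMB11, which in mammals is made in the thymus, had 1. The beta subunit gene psmb12 had 36 counts. PSME2, the partner of PSME1 in the activator ring, had 78 counts, between 5 and 14 in each group of 2 libraries, and psma6l had 8. A total of 3 counts, the limit that a count of 0 allows, was 0.367 to 0.660 CPM per library. Both PSMD2 genes, ENSDARG00000099653 and ENSDARG00000103190, were listed at 0 in every library. PSMD2 is a scaffold subunit of the base that cells generally require, and why it was listed at 0 was not tested.

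Genes that work with the proteasome were taken from 4 lists. Of 14 tested partners outside the naming rule, 4 rose (28.6%) and 5 fell (35.7%) in controls between 8 and 18 hpf, against 33.7% and 26.4% of all features, with a median of -0.08. ECPAS, an adaptor of the proteasome, went from 45.2 and 39.4 CPM to 76.7 and 74.1 (log2 0.83, edgeR adjusted p = 7.2e-05). USP14, which trims ubiquitin at the cap, went from 83.7 and 71.9 to 130 and 121 CPM (log2 0.68), and fbxo7 rose by 0.99, a call that ended when replicate 2 of the 8 or of the 18 hpf controls was left out (edgeR adjusted p = 0.055 and 0.062). The stress-linked binding proteins zfand5b (-0.90) and zfand5a (-0.68) fell, as did AKIRIN1 (-0.49), whose relative AKIRIN2 carries proteasomes into the nucleus in mammals. For these partners 0 of 14 were called in the averaged knockdown comparison. An unadjusted p under 0.05 was reached by 2 of them, against 2741 of the 17756 features.

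Of 17 tested genes of transcriptional control, 1 rose (5.88%) and 5 fell (29.4%) between 8 and 18 hpf, against 33.7% and 26.4% of all features, with a median of -0.15. NGLY1, which in mammals processes the proteasome gene activator NFE2L1, went from 48.1 and 52.5 CPM to 28.4 and 26.4 (log2 -0.88, edgeR adjusted p = 0.000141), and maff fell by 0.77. The gene printed as NFE2L1, ENSDARG00000030616, went from 5.404 and 2.04 CPM to 1.76 and 0.28 (log2 -2.003, SE 0.76, edgeR adjusted p = 0.031). It is 1 of the 5 that fell and had the lowest log2 value of the 17. It was named after that value was seen, and its paralog nfe2l1b, also on the list, is not described. The level of 0.28 lies under 0.367 CPM, the lowest level that 3 counts make in a library. The 18 hpf controls thus did not both reach the level of the filter on low counts, and the test is not read. Fits without 1 library are not reported for this gene. Both NFYA genes changed, in opposite directions: ENSDARG00000001621 by 2.16 and ENSDARG00000042004 by -0.81. None of the 17 was called in the averaged knockdown comparison, where 2 had an unadjusted p under 0.05, against 2741 of the 17756 features.

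Of 35 tested genes for ubiquitin, its activation and the shuttles that bring substrates, 9 rose (25.7%) and 13 fell (37.1%), against the same shares of all features, with a median of -0.02. The gene rps27a, which encodes ubiquitin fused to a ribosomal protein, rose from 840 and 882 to 2565 and 2724 CPM (log2 1.62, edgeR adjusted p = 1.1e-08). The polyubiquitin genes UBB ENSDARG00000002369 (332 and 396 to 128 and 137 CPM, log2 -1.46, edgeR adjusted p = 1.9e-07) and ubb ENSDARG00000093313 (log2 -1.20) fell, as did the shuttle UBQLN4 (-0.74). CUL1, a scaffold of ubiquitin ligases, rose by 0.67, a call that ended when replicate 2 of the 8 or of the 18 hpf controls was left out (edgeR adjusted p = 0.074 and 0.087). Near-identical ubiquitin repeats can share reads between these genes, so their separate values are uncertain. In the averaged knockdown comparison 1 of the 35 was called higher and 0 lower, against 0.332% and 1.3% of all features. It was the shuttle rad23ab, with 11.4 and 12.1 CPM in controls and 16.4 and 16.8 in the knockdown at 11 hpf. Its levels at the other times are not printed. Its averaged log2 value was 0.56 (SE 0.13, edgeR adjusted p = 0.043), and the call was lost in 14 of the 16 fits without 1 library, all but those that omitted knockdown 11 hpf replicate 1 or control 14 hpf replicate 1.

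Of 15 genes matched for interferon signalling and peptide transport, the setting in which the inducible subunits act in mammals, 8 were tested. In controls 0 of the 8 rose by edgeR and 1 fell (12.5%), against 33.7% and 26.4% of all features. The median was -1.18, with a median SE of 0.71. An unadjusted p under 0.05 was reached by 3, against 11383 of the 17756 features. The gene called lower was the signalling inhibitor SOCS1, which went from 3.11 and 1.53 CPM to 0.44 and 0.14 (log2 -3.06, edgeR adjusted p = 0.0092). Its 18 hpf controls lie under 0.660 CPM, the highest level that 3 counts make in a library. They did not carry the gene through the filter on low counts. Its test may be partly fixed by that filter and is not read. The call also ended when replicate 1 of the 8 hpf or replicate 2 of the 18 hpf controls was left out. None was called in the averaged knockdown comparison, where the median was 0.62 with a median SE of 0.37. In it 5 of the 8 lay above 0 and 3 below. An unadjusted p under 0.05 was reached by 3, against 2741 of the 17756 features. The transcription factor gene irf1b, named after its value was seen, had the highest averaged log2 value of the 8, 1.17 (edgeR adjusted p = 0.080, not called). The lowest of the 8 was -1.08.

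The genes outside the naming rule most like the tested members were POLD1 (r = 0.93), the catalytic subunit of a DNA polymerase, DMBX1 ENSDARG00000002510 (0.93), si:ch211-74m13.1 (0.93), BICD1 (0.92) and PXDN (0.91). Likeness was Pearson's r of log2 CPM with the mean log2 CPM of the 48 genes over the 16 libraries, which share the course of development and come in 8 groups, so that it is a description only. Among the members, PSMB6 (0.96) and PSMB1 (0.94) followed the mean of the others most closely, while PSME3 (-0.49), PSMB7 (-0.48) and PSME1 (-0.45) ran against it.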

How the data were processed

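The authors deposited raw counts per Ensembl gene and repeat family for each library. STAR and GRCz11 are named in the submitters' processing notes, and how the counting was done is not given in the sources used here. All 16 single-library tables equalled the combined table. Libraries of a group differed by more than sampling noise (chi-square over its degrees of freedom between 3.89 and 31.4). All 16 libraries entered 1 edgeR 4.0.16 fit in R 4.3.3 (quasi-likelihood F-test, robust, TMM scaling, filterByExpr), with 8 group means and 8 residual degrees of freedom. It covered 16894 genes and 862 families, and the biological coefficient of variation was 0.177. Alternatives were DESeq2 1.42.0, other scalings and filters, other sets of libraries and a replicate block. Tests were run on simulated counts. Intervals and floors cover counting error only. Members, lists and the rule for named genes (every member called by the knockdown, otherwise the lowest p; the largest rise and fall per role; low members and paralogs) were chosen with earlier results of these data known. List genes named are the 3 with the lowest p per direction, with irf1b and NFE2L1 added after their values were seen. Symbols came from a name table. No coordinates are given. The result of 1 list gene is left out.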

Additional observations from a re-analysis of the deposited data

How the results depend on the processing

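Counts of members called by time were within 1.5 times of those reported under RLE and upper-quartile scaling, no filter, genes alone and a replicate block; under DESeq2 the 14 to 18 hpf count was 1 in place of 2. Averaged over 11, 14 and 18 hpf only, 0 members differed by knockdown (PSMB10 -0.51, adjusted p = 0.111 by edgeR). Leaving out 1 library gave 0 to 1 members for the average, 1 to 10 for 11 against 8 hpf, 0 to 2 for 18 against 14 hpf, 14 to 22 for 18 against 8 hpf and 15 to 27 for the knockdown course, and 0 to 0 elsewhere. Deviations of same-numbered libraries correlated at 0.32, 0.50, 0.16 and 0.07 at 8, 11, 14 and 18 hpf, and since 1 of the 4 was under 0.1 and no label ties the numbers to clutches, they were not taken as pairs; the positive values are a hint that numbers may be shared. With a replicate block within each time the averaged comparison called 2097 features in place of 289, and 1 member was called at 8 hpf (PSMC1), 1 at 11 hpf (PSMB10) and 4 in the average (PSMB10, PSMC1, PSMC5 and PSMA8, with adjusted p of 0.0029 for PSMC1 and 0.0064 for PSMC5). No direction reversed. Over 40 named gene results and 888 refits, 839 kept their side of the threshold, 46 lost it and 3 gained it. The 10 members under the filter were not tested. Among features in general, not the members, simulated 1.5-fold changes were recovered in 9.23% of cases at 8 hpf and 46.3% on average over times.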
